A study of Homo sapiens with 12 samples.

Results

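The 3 libraries labelled K562/IM+L were compared directly with the 3 libraries of K562+L, which asks how the imatinib-resistant and the parental line differ when both have received lycorine. K562, a human line from chronic myeloid leukemia, carries the BCR-ABL fusion. K562/IM was derived from it by stepwise exposure to imatinib (IM), the inhibitor of that kinase, and was then maintained in the drug. Lycorine is a plant alkaloid. Both groups of the comparison received it at 6 µM, for a time that the sources used here do not state, and they do not say whether IM was in the medium. The other 6 of the 12 libraries are 3 of untreated K562 and 3 of untreated K562/IM, which served as references. Polyadenylated RNA was sequenced and raw counts for 19447 gene symbols were deposited. Members of the comparison were all symbols that passed a low-count filter in the 6 libraries, which left 13357 genes. No source says that the 3 libraries of a group came from separate cultures, so the p-values measure the spread between these libraries, which may be technical.

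The label of the libraries labelled K562/IM+L is in doubt. The sample labels give this group the code G2, whereas the study's own heat map and volcano plot of K562/IM+L carry the code G6. ABCB1, which encodes the efflux pump P-gp, stood at a mean of 23.6 CPM (its count relative to the TMM-normalized library size) in K562/IM and 1.76 in K562. It was 3.83, 3.84 and 5.15 CPM in the 3 K562+L libraries and 0.705, 0.488 and 1.06 in the 3 labelled libraries, so that all labelled libraries lay below all K562+L libraries. Among 257 genes called higher in K562/IM than in K562 with a log2 fold change over 5, the labelled libraries were nearer in log2 CPM to K562+L than to K562/IM for 225 and nearer to K562/IM for 32. Among 97 genes called lower there with a log2 fold change under -5, they were nearer to K562+L for 92 and to K562/IM for 5. Median Spearman correlations across genes between single libraries of the labelled group and of the other groups were 0.934 with K562, 0.913 with K562+L and 0.904 with K562/IM. All were below those among the other groups, at 0.979 for K562 with K562+L, 0.950 for K562 with K562/IM and 0.944 for K562+L with K562/IM. CDKN2A, CDKN2B and MTAP, which lie in a region known to be deleted in K562, held at most 5 counts in any of the 12 libraries. The grouping was left as deposited, and every direction below is that of the libraries so labelled.

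The libraries held 88481508 to 107344598 counts in K562+L and 75093844 to 92154227 in the labelled group. The 10 genes with the highest counts took 4.22% to 4.27% of the counts in K562+L and 7.95% to 9.61% in the labelled group, lowest in its replicate 3. The summed level of 8 T and B cell markers was 0.543 to 1.36 CPM in K562+L and 0.881 to 1.34 in the labelled group, against 24.3 to 26.3 in K562/IM, where CD3D made up most of it. CD2, CD79B and MS4A1 were at 0 in all 6 lycorine libraries. The 7 fibroblast markers summed to 0.681 to 1.01 CPM and 1.31 to 1.65, against 20.4 to 25.2 in K562/IM. The 8 monocyte and granulocyte markers summed to 108 to 127 CPM and 75.4 to 80.3, nearly all of it LYZ, with S100A8 and S100A9 at 0. The 6 epithelial markers summed to 191 to 214 CPM and 213 to 278, nearly all of it EPCAM and KRT19. The part of these levels in the results was not tested.

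K562 cells are known to make embryonic and fetal globins at a low level and to raise red cell genes when they are pushed to differentiate. In that lineage GATA1, KLF1, TAL1 and LMO2 are transcription factors that drive globin, haem and membrane genes, while MYB keeps progenitors dividing. The BCR-ABL kinase is known to signal through RAS and ERK, STAT5 and PI3K, and lycorine is known as an inhibitor of protein synthesis.

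Of the 13357 genes tested with edgeR's quasi-likelihood test, 4235 (31.7%) were called, that is, had an absolute log2 fold change over 1 together with a Benjamini-Hochberg adjusted p under 0.05. In the labelled libraries 2555 genes (19.1%) were higher and 1680 (12.6%) lower than in K562+L. With upper-quartile normalization in place of TMM the split was 3133 higher and 1149 lower, since the median of all genes then moved from a log2 fold change of 0.02 to 0.23. Large differences were more often upward: 602 genes were higher by over 3 on the log2 scale and 86 lower by as much. The 3 libraries of one group did not overlap those of the other for 4212 of the 4235 called genes, against 72.5% of all genes tested. Among the called genes, 74 had no count in any K562+L library and 13 none in any labelled library. The untreated K562 mean lay nearer to K562+L than to the labelled group for 79.8% of the genes called higher and 80.4% of those called lower. For the untreated K562/IM mean these shares were 55.9% and 66.0%. The share of members called in either direction was below the 31.7% of all genes, or above it by less than 5 percentage points, for several lists. These were tRNA synthetases (35.0%), cytosolic ribosomal proteins (34.5%), the blotted proteins with MKI67 (33.3%), megakaryocyte and platelet genes (31.8%), ATF4 targets (30.6%), erythroid and stem cell transcription factors (29.6%), stress kinase phosphatases (28.6%), the BCL2 family (26.7%), immediate early genes (25.7%), mitosis genes (17.4%), autophagy machinery (16.7%), sterol genes (14.3%) and the endoplasmic reticulum unfolded protein response (4.17%). Their counts of calls are given as a description. At an adjusted p under 0.05 with no fold threshold, 34.1% of all genes were higher and 33.1% lower.

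**Figure D1:**
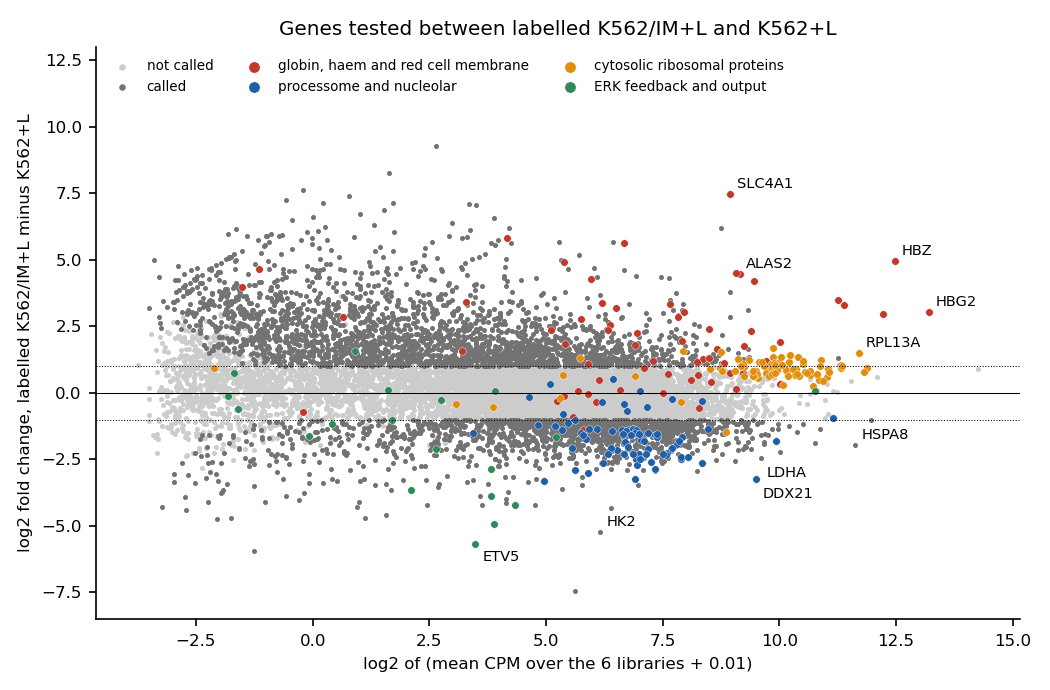
Log2 fold change (labelled K562/IM+L minus K562+L) of each gene against the log2 of its mean CPM over the 6 libraries, with dotted lines at 1 and -1. Members of the globin, haem and red cell membrane lists lie mostly above 1, processome and nucleolar members mostly below -1, and ribosomal proteins in a narrow band around 1; 87 genes with 1 group at 0 are not drawn.

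Red cell genes were higher in the labelled libraries. Over globin chains, haem synthesis and red cell membrane genes together, 43 of 64 members tested were called higher and 1 lower. All 11 tested members of the globin list were called higher, against 19.1% of all genes. Their log2 fold changes ran from 1.84 to 5.65 with a median of 3.51, against a median of 0.02 over all genes. Their summed level was 4404 ± 398 CPM (SD, n = 3) in K562+L and 47504 ± 8999 CPM (SD, n = 3) in the labelled group. It was 7475 ± 1406 CPM in K562 and 2686 ± 92.3 CPM in K562/IM (SD, n = 3 each). These are bulk RNA values, in which a larger share of cells with a transcript and more of it per cell cannot be told apart.

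HBZ, the embryonic alpha-like globin, lies on chromosome 16 from 152687 to 154503 of GRCh38 and stood at 369.6, 383 and 293 CPM in K562+L. In the labelled libraries it stood at 11932, 13216 and 8228 CPM, with replicate 3 the lowest but still far above every K562+L library (log2 fold change 4.96 ± 0.21 (SE), adjusted p = 1.4e-06). The gamma globins HBG1 and HBG2 encode the fetal beta-like chains and are near-identical, so that reads may be split between them. HBG2 held 2106, 2179.6 and 1842 CPM in K562+L and 17702, 19293 and 13978 in the labelled libraries (log2 fold change 3.02 ± 0.13 (SE), adjusted p = 1.6e-06), and HBG1 had a log2 fold change of 2.98. HBA1, an adult alpha globin with a near-identical copy in HBA2, held 557, 519 and 396 CPM against 5065, 5822 and 3793 (log2 fold change 3.29 ± 0.19 (SE), adjusted p = 4.6e-06). No globin of these 4 had overlapping libraries, and the same replicate of the labelled group was the lowest for each. HBE1, the embryonic epsilon chain, had 46.5, 48.1 and 38.7 CPM against 1093, 1164 and 843 (log2 fold change 4.51 ± 0.16 (SE), adjusted p = 8.8e-07). AHSP, the chaperone of free alpha globin, had 3.22, 3.97 and 4.55 CPM against 227, 221 and 156 (log2 fold change 5.65 ± 0.21 (SE), adjusted p = 9.7e-07). HBM, a little-used alpha-like gene, stood near 0 in K562+L (0.0346, 0 and 0.0576 CPM) and at 1.14, 0.963 and 0.446 CPM in the labelled libraries (log2 fold change 4.64 ± 0.82 (SE), adjusted p = 0.00139).

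Genes of haem synthesis and transport were also higher, with 12 of 19 members (63.2%) called higher, against 19.1% of all genes, and none lower. Their median log2 fold change was 1.26. Without labelled replicate 2 or 3, 1 member was called lower. ALAS2, the erythroid enzyme of the first step, lies on chromosome X from 55009055 to 55031064 and held 48.7, 50.9 and 47.0 CPM in K562+L against 1155, 1169.6 and 962 in the labelled libraries (log2 fold change 4.45 ± 0.11 (SE), adjusted p = 5.3e-07). SLC25A37, the mitochondrial iron importer mitoferrin, lies on chromosome 8 from 23528805 to 23575463 and had the smallest p among the genes higher in the labelled group. It held 69.2, 71.9 and 70.1 CPM against 1292, 1367 and 1341 (log2 fold change 4.21 ± 0.078 (SE), adjusted p = 3.7e-07). PPOX and UROS, further enzymes of the pathway, had log2 fold changes of 2.87 and 2.37. Both were separated without overlap between the groups. Of 16 genes of iron uptake, storage and export, 6 (37.5%) were called higher, against 19.1% of all genes, and 1 lower, with a median of 0.31. TFRC, the transferrin receptor, held 356, 340.1 and 389.8 CPM against 872, 829 and 1106 (log2 fold change 1.34 ± 0.13 (SE), adjusted p = 5.0e-05), and its relative TFR2 had a log2 fold change of 2.51. SLC11A1, a metal ion transporter, was higher (log2 fold change 1.41) at a low level, whereas SLC39A14, an importer of zinc and iron, was the member called lower (log2 fold change -2.62).

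Red cell membrane and blood group genes had 20 of 34 members (58.8%) called higher, against 19.1% of all genes, and 1 lower. Their median log2 fold change was 1.25. SLC4A1, the anion exchanger band 3, lies on chromosome 17 from 44248385 to 44268141 and was the member with the largest difference. It held 4.69, 4.80 and 6.88 CPM in K562+L and 1000.2, 923 and 1030.1 in the labelled libraries (log2 fold change 7.46 ± 0.20 (SE), adjusted p = 5.3e-07), while the means of K562 and K562/IM were 4.35 and 0.122 CPM. EPB42, which encodes protein 4.2 that binds band 3, stood at 0.716, 0.462 and 0.653 CPM against 35.2, 36.8 and 34.5 (log2 fold change 5.82 ± 0.17 (SE), adjusted p = 6.7e-07). AQP1, the water channel, stood at 2.87, 3.15 and 1.81 CPM against 84.8, 84.1 and 75.7 (log2 fold change 4.93 ± 0.21 (SE), adjusted p = 1.4e-06). The labelled libraries of these 3 genes lay close together and far from every library of K562+L. KEL, the Kell blood group protein, held 51.8, 51.8 and 54.5 CPM against 444, 460.1 and 426 (log2 fold change 3.04 ± 0.080 (SE), adjusted p = 5.3e-07), and ART4, the Dombrock blood group protein, was higher (log2 fold change 3.99) but under 1 CPM in all 6 libraries.

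Among the 43 red cell genes called higher, 26 had a promoter in the RefSeq table for GRCh38.p14. The 4 of these with the largest log2 fold changes were EPB42, AQP1, HBM and ALAS2, and their sequences from 250 bases before to 50 bases after the start are shown because they lie at genes with large differences. They were searched on both strands for AGATAA, a form of the site known for GATA factors, which reads TTATCT on the other strand, and for TGACTCA, the AP-1 site, which reads TGAGTCA on the other strand. The pair of motifs do not overlap each other in letters. Capitals mark the matches. AGATAA was found in 10 of the 26 promoters (38.5%), against 5.31% of 10669 tested genes with a promoter and 10.5% of all 27305 promoters. TGACTCA was found in 2 of the 26 (7.69%), against 3.09% and 4.92%. CACCC, a site of KLF factors that is not marked in the sequences, was found in 21 of the 26 (80.8%), against 63.6% and 58.9%. These shares were not tested, and uncalled members of the red cell lists were not set beside them. RHCE and RHD, whose windows hold near-identical sequence, both count among the 10. EPB42 held 2 matches to AGATAA, ALAS2 held 1 match to it and 1 to TGACTCA, and AQP1 and HBM held no match to either in this window. The windows are EPB42 at chr15:43220969-43221268 on the minus strand, AQP1 at chr7:30911603-30911902 on the plus strand, HBM at chr16:165728-166027 on the plus strand and ALAS2 at chrX:55030928-55031227 on the minus strand.
EPB42: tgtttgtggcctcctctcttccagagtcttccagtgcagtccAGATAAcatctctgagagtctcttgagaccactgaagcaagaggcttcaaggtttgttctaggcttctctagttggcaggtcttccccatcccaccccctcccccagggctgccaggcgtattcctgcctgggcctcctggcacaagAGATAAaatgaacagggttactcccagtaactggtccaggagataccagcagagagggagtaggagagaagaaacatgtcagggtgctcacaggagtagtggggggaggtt
AQP1: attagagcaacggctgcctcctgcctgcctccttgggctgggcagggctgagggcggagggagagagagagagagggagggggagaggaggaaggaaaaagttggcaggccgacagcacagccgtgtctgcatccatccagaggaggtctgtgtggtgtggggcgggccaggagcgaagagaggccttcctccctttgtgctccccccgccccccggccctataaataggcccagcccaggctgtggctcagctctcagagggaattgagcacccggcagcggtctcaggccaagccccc
HBM: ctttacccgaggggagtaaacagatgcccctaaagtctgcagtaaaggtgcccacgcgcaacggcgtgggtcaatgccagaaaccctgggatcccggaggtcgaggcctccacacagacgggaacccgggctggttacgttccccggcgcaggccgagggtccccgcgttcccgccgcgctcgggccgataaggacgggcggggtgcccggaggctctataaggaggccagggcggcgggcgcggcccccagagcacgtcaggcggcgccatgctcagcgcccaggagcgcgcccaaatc
ALAS2: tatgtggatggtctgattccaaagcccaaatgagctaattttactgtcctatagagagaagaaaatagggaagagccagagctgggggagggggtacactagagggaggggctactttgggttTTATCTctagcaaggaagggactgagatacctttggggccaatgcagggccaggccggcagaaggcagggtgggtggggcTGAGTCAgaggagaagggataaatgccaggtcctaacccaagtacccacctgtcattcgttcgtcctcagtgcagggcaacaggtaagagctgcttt

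**Figure D2:**
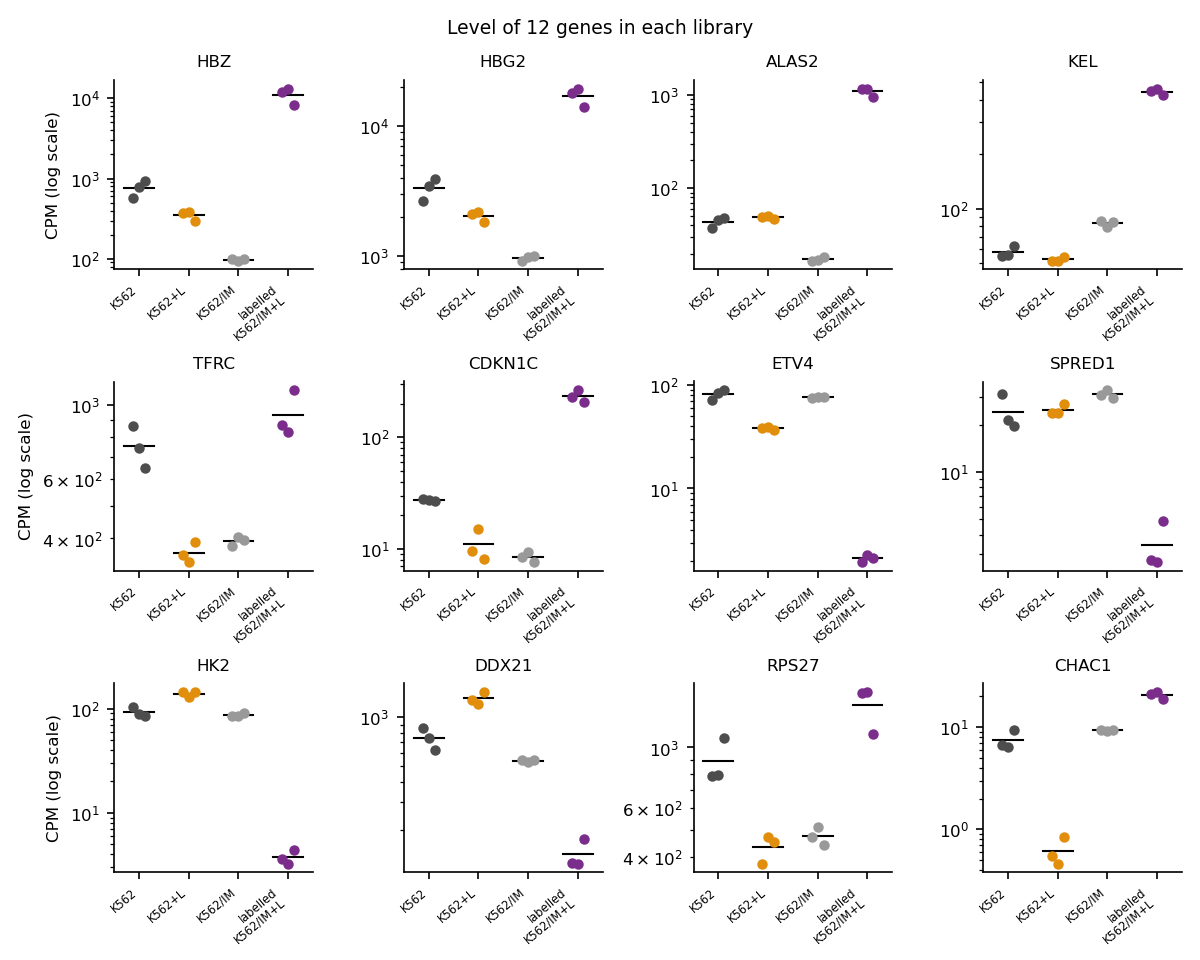
CPM on a log scale of 12 genes in every library, with points for the 3 libraries of each group and a line at the group mean; K562 and K562/IM are untreated. HBZ, HBG2, ALAS2 and KEL sit highest in the labelled K562/IM+L libraries, and ETV4, SPRED1, HK2 and DDX21 lowest.

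Other genes among those with the smallest p were also far apart. ESPN, an actin-bundling protein, held 11.2, 12.9 and 9.98 CPM in K562+L and 850.0, 906 and 779 in the labelled libraries (log2 fold change 6.19 ± 0.14 (SE), adjusted p = 5.3e-07). PKLR, the pyruvate kinase of liver and red cells, held 45.3, 41.8 and 41.8 CPM against 461, 451 and 428 (log2 fold change 3.34 ± 0.084 (SE), adjusted p = 5.3e-07). FAXDC2, a fatty acid hydroxylase domain protein, had a log2 fold change of 4.32. ATP1B2, a beta subunit of the sodium pump, MELTF, melanotransferrin, and MYO15B, an unconventional myosin, had log2 fold changes of 3.33, 4.32 and 5.83. All of these were selected for having no overlap between the groups, so their separation follows from the choice.

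Transcription factors of the erythroid and stem cell programme were called in both directions. Of 27 tested, 5 were called higher and 3 lower, with a median log2 fold change of 0.22. Without K562+L replicate 2 the number called higher was 8. MYB, on chromosome 6 from 135181315 to 135219173, held 150.3, 146 and 162 CPM in K562+L against 24.5, 25.6 and 28.4 in the labelled libraries (log2 fold change -2.58 ± 0.097 (SE), adjusted p = 9.8e-07). LMO2, a bridging protein of the TAL1 complex, held 82.6, 92.8 and 82.7 CPM against 436, 451 and 367 (log2 fold change 2.25 ± 0.11 (SE), adjusted p = 2.0e-06). NFE2, a factor of red cell precursors and megakaryocytes, was higher (log2 fold change 2.28), and BACH2, a repressor known mostly from B cells, was lower (log2 fold change -1.74) at under 1 CPM in the labelled group. GATA1 and KLF1, chosen after their values were seen, were not called. GATA1 held 214, 224 and 179.8 CPM against 262, 275 and 213 (log2 fold change 0.25 ± 0.12 (SE), adjusted p = 0.112), so that its groups overlapped, and KLF1 held 188, 186 and 148 against 365, 377 and 293 (log2 fold change 0.96 ± 0.13 (SE), adjusted p = 3.6e-04).

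Many outputs of the ERK pathway were lower, though their summed level was not. Of 19 genes of ERK feedback and output, 11 (57.9%) were called lower, against 12.6% of all genes, and 1 higher. Their median log2 fold change was -1.16. The summed level of the list overlapped between the groups, at 1752 to 2023 CPM in K562+L and 1695 to 2010 CPM in the labelled group. The 3 PEA3 factors, which ERK is known to induce, stood at low levels in the labelled libraries. ETV5, on chromosome 3 from 186046308 to 186110318, held 19.8, 22.4 and 23.1 CPM in K562+L against 0.503, 0.642 and 0.181 in the labelled libraries (log2 fold change -5.68 ± 0.37 (SE), adjusted p = 7.9e-06). ETV4 held 38.3, 38.9 and 36.9 CPM against 1.95, 2.27 and 2.13 (log2 fold change -4.20 ± 0.11 (SE), adjusted p = 5.3e-07), and ETV1 held 28.5, 26.3 and 30.6 against 0.868, 0.768 and 1.19 (log2 fold change -4.94 ± 0.19 (SE), adjusted p = 9.8e-07). VGF, a secreted neuropeptide precursor, was lower as well (log2 fold change -3.88). In untreated cells the means of ETV4 were 81.2 CPM in K562 and 75.9 in K562/IM, and those of ETV5 were 33.9 and 29.7.

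Of 16 STAT5 targets, 7 (43.8%) were called lower, against 12.6% of all genes, and 3 (18.8%) higher, against 19.1%. Their median was -0.54. SPRED1, an inhibitor of RAS signalling, held 23.7, 23.8 and 26.9 CPM in K562+L against 2.76, 2.68 and 4.90 in the labelled libraries (log2 fold change -2.87 ± 0.25 (SE), adjusted p = 2.9e-05), without overlap. CISH, an inhibitor of cytokine signalling, was uneven within K562+L, at 86.5, 77.8 and 18.9 CPM, against 13.1, 11.8 and 12.3 (log2 fold change -2.33 ± 0.49 (SE), adjusted p = 0.00344). K562+L replicate 3 was close to the labelled group, though the groups did not overlap. ID1, an inhibitor of differentiation factors, was higher (log2 fold change 2.14), as was OSM, the cytokine oncostatin M, from a level near 0 (log2 fold change 5.22). Of 7 stress kinase phosphatases, DUSP8 and DUSP16 were called lower (log2 fold changes -2.73 and -1.97) and none higher. Their means were 27.1 and 65.5 CPM in K562+L and 4.18 and 17.1 in the labelled group. In untreated K562 they were 0.662 and 20.4 CPM, and in K562/IM 4.33 and 24.2. Immediate early genes, which include the AP-1 subunits, had 3 of 35 called higher and 6 lower, and their median was 0.04, with its sign negative in some alternatives. Without labelled replicate 1 the number called lower was 10. KLF6 held 275, 128 and 305 CPM against 31.8, 58.7 and 60.4 (log2 fold change -2.26 ± 0.37 (SE), adjusted p = 8.7e-04), and BATF3, a dimer partner of JUN, was lower (log2 fold change -3.23). BTG2, an antiproliferative gene, was higher (log2 fold change 2.20 ± 0.12 (SE), adjusted p = 3.4e-06), as was EGR2 from a level near 0 (log2 fold change 3.13), a call that was lost without K562+L replicate 1 (adjusted p = 0.0539) or labelled replicate 1 (adjusted p = 0.0722).

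Glucose uptake and glycolysis had 7 of 23 members (30.4%) called lower, against 12.6% of all genes, and 3 higher, with a median of -0.60. HK2, the hexokinase that traps glucose, lies on chromosome 2 from 74833981 to 74893359 and held 144, 128 and 145 CPM in K562+L against 3.59, 3.27 and 4.38 in the labelled libraries (log2 fold change -5.25 ± 0.14 (SE), adjusted p = 5.3e-07). SLC2A3, the glucose transporter GLUT3, held 158, 156 and 164 CPM against 8.62, 7.13 and 8.62 (log2 fold change -4.33 ± 0.11 (SE), adjusted p = 5.3e-07). Both genes were among those selected for having no overlap between the groups. The means in untreated K562 and K562/IM were 92.4 and 86.4 CPM for HK2 and 206 and 252 CPM for SLC2A3. PKM, the pyruvate kinase of growing cells, held 328, 306 and 293 CPM against 53.6, 53.4 and 46.0 (log2 fold change -2.63 ± 0.097 (SE), adjusted p = 9.4e-07), the reverse of the direction of PKLR. LDHA, which makes lactate, and ENO1, enolase, were lower (log2 fold changes -2.45 and -1.88).

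The machinery that builds ribosomes was lower, while most transcripts of ribosomal proteins were higher by less than the fold threshold. The small-subunit processome, which matures the ribosomal RNA of the small subunit, had 44 of 49 members (89.8%) called lower and none higher. Its log2 fold changes ran from -3.23 to -0.30 with a median of -1.66. RNA polymerase I and nucleolar genes had 18 of 26 (69.2%) called lower and none higher, with a median of -1.63. Of all genes 12.6% were called lower. The summed level of the processome was 9255 ± 120 CPM (SD, n = 3) in K562+L and 2860 ± 67.0 CPM (SD, n = 3) in the labelled group. It was 7093 ± 173 CPM in K562 and 4681 ± 33.4 CPM in K562/IM (SD, n = 3 each). DDX21, a nucleolar RNA helicase on chromosome 10 from 68956128 to 68985073, held 1274, 1213 and 1444 CPM against 126, 125 and 176 (log2 fold change -3.23 ± 0.16 (SE), adjusted p = 2.7e-06). UTP20, a scaffold of the processome, held 216, 192 and 241 CPM against 19.6, 19.3 and 31.5 (log2 fold change -3.23 ± 0.22 (SE), adjusted p = 8.8e-06). No processome library total of the labelled group came near one of K562+L. CD3EAP, a subunit of RNA polymerase I, was lower (log2 fold change -3.30), and NOP16 and NOP2, nucleolar assembly factors, were lower (log2 fold changes -3.02 and -2.72). RRP9, WDR3, UTP15 and UTP4 of the processome had log2 fold changes of -2.90, -2.88, -2.63 and -2.40.

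Of 84 cytosolic ribosomal protein genes tested, 77 were higher at an adjusted p under 0.05, against 34.1% of all genes. Of these, 28 passed the fold threshold as well, which was 33.3% of the list against 19.1% of all genes, and 1 member was called lower. Their median was 0.86. The summed level of the list was 65436 ± 4672 CPM in K562+L and 123229 ± 20631 CPM in the labelled group (SD, n = 3 each). It was 95930 ± 16119 CPM in K562 and 55946 ± 1900 CPM in K562/IM (SD, n = 3 each). Single libraries of untreated K562 (81222 to 113162 CPM) overlapped those of the labelled group (99479 to 136720 CPM). The count of 28 rested on the scale and on 1 library. It was 50 under upper-quartile normalization and 45 without labelled replicate 3. Over 77 canonical members, without paralogs such as RPL22L1, 75 were higher at an adjusted p under 0.05 and none lower. RPS27, a small-subunit protein, held 377, 471 and 452 CPM in K562+L against 1578, 1598 and 1117 in the labelled libraries (log2 fold change 1.69 ± 0.15 (SE), adjusted p = 4.2e-05). RPL13A, a large-subunit protein, held 1785, 1911 and 1498 CPM against 5324, 5515 and 4142 (log2 fold change 1.49 ± 0.13 (SE), adjusted p = 3.6e-05). In both, the groups did not overlap and labelled replicate 3 was the lowest of its group. RPS28 and RPS29 had log2 fold changes of 1.53 and 1.58. Many ribosomal protein genes have processed pseudogenes whose reads the authors' counting could split.

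Cytosolic chaperones were lower, with 15 of 34 members of the heat shock list (44.1%) called lower, against 12.6% of all genes. Of the list 3 were called higher, and its median was -0.76. HSPA8, the constitutive HSP70, held 4845, 4970.0 and 5275 CPM in K562+L against 1339.6, 1355 and 1229 in the labelled libraries (log2 fold change -1.98 ± 0.075 (SE), adjusted p = 9.8e-07). HSP90AA1 was lower (log2 fold change -1.36), and HSP90AB1 was lower (log2 fold change -1.02), a value that fell short of the fold threshold under 4 of the alternatives. HSPH1 and CHORDC1, co-chaperones, were lower (log2 fold changes -2.40 and -2.57). DNAJB2, a J-domain co-chaperone, was higher, at 2.53, 2.30 and 2.78 CPM against 38.1, 38.5 and 32.1 (log2 fold change 3.80 ± 0.13 (SE), adjusted p = 8.2e-07), and DNAJA4 was higher (log2 fold change 2.50) at under 1 CPM. Besides these, HNRNPA2B1, an RNA-binding protein, was among the 5 genes called lower with the highest CPM, a level that is not per length (log2 fold change -1.18 ± 0.079 (SE), adjusted p = 8.8e-06). It fell short of the fold threshold under upper-quartile normalization, with a log2 fold change of -0.96.

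Targets of ATF4, the factor of the amino acid stress response, were split, with 9 of 36 called higher and 2 lower and a median of 0.07. CHAC1, which degrades glutathione, held 0.543, 0.462 and 0.845 CPM against 21.0, 22.3 and 19.0 (log2 fold change 5.02 ± 0.24 (SE), adjusted p = 2.0e-06), and its mean in untreated K562 was 7.49 CPM. DDIT4, an inhibitor of mTORC1, held 10.5, 11.3 and 12.9 CPM against 109.7, 113 and 107 (log2 fold change 3.21 ± 0.10 (SE), adjusted p = 7.4e-07). JDP2, a bZIP repressor, and ADM2, a secreted peptide, were higher (log2 fold changes 4.67 and 4.41). All 4 also had untreated K562 and K562/IM means above every K562+L library. The 20 tRNA synthetases, many of which ATF4 is known to induce, had 7 members called lower, or 35.0% against 12.6% of all genes, and none higher (median -0.78), led by FARSB (log2 fold change -2.43), VARS1 (log2 fold change -2.11), FARSA (log2 fold change -2.01) and IARS1 (log2 fold change -1.45). Under upper-quartile normalization 4 were called lower and 1 higher. Of 24 genes of the endoplasmic reticulum unfolded protein response only HERPUD1, which acts in the disposal of misfolded proteins, was called (log2 fold change 2.002 ± 0.093 (SE), adjusted p = 1.9e-06). Of 28 sterol genes 4 were called higher, namely TM7SF2, MVD, INSIG1 and MSMO1 (log2 fold changes 2.89, 1.92, 1.62 and 1.46), and none lower. The summed level of the sterol list was 4567 CPM in K562, 3266 in K562+L, 3281 in K562/IM and 4616 in the labelled group. Of 20 targets of NRF2, the factor of the oxidative stress response, 6 (30%) were called lower, against 12.6% of all genes, and 2 higher (median -0.22). Those lower included OSGIN1 (log2 fold change -2.70), the thioredoxin reductase TXNRD1 (log2 fold change -1.78), the quinone reductase NQO1 (log2 fold change -1.54) and the sulfiredoxin SRXN1 (log2 fold change -1.33). The summed level of the NRF2 list went the other way, at 6089 to 6678 CPM in K562+L and 6734 to 8891 CPM in the labelled group.

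**Figure D3:**
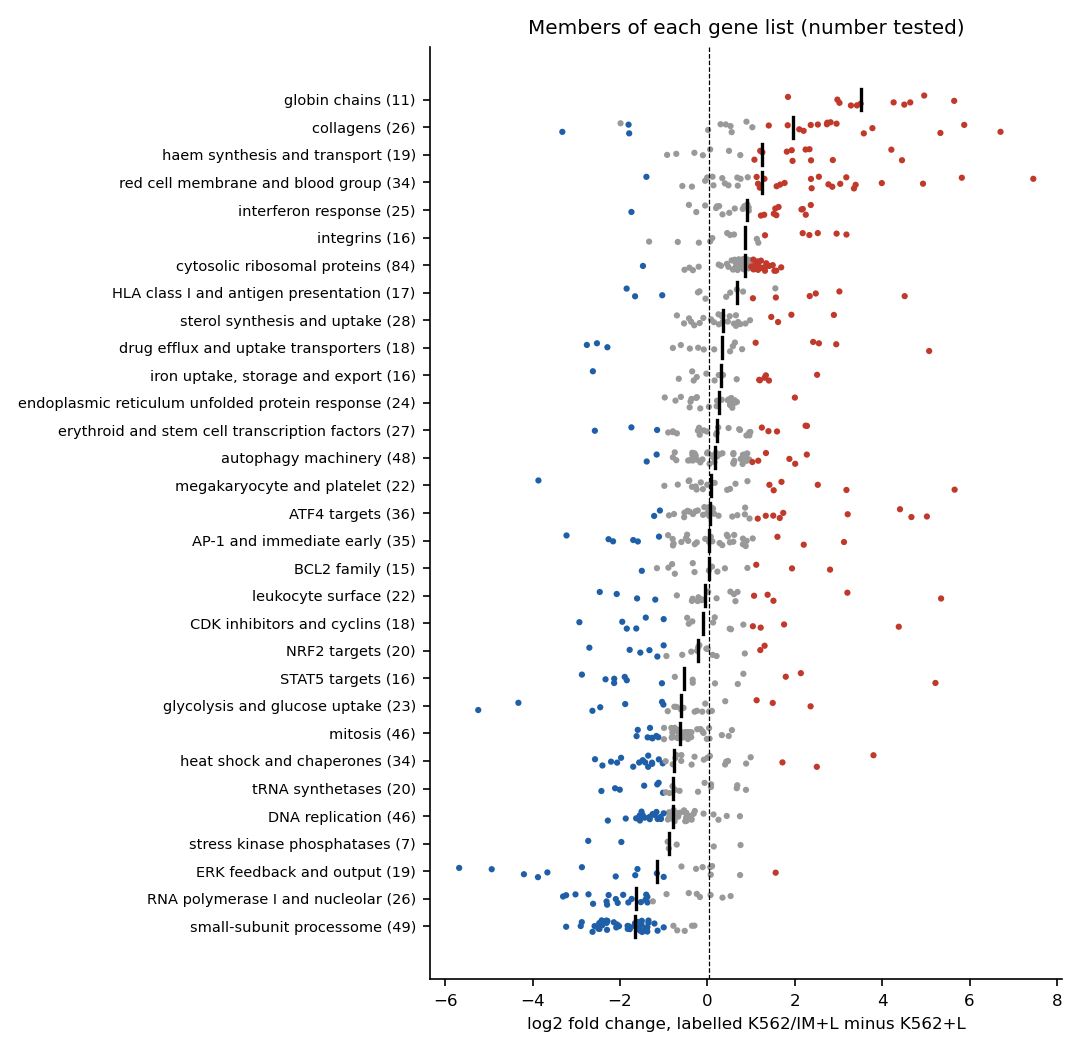
Log2 fold change (labelled K562/IM+L minus K562+L) of each tested member of the gene lists, red where called higher, blue where called lower and grey otherwise, with the list median as a black bar and the median of all genes as a dashed line. The globin list lies wholly to the right with a median of 3.51, and the processome wholly to the left with a median of -1.66.

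Most cell cycle genes differed by less than the fold threshold. At an adjusted p under 0.05 with no fold threshold, 41 of 46 DNA replication genes and 36 of 46 mitosis genes were lower, against 33.1% of all genes, and 2 of each list were higher. With the fold threshold 17 DNA replication genes were called lower and none higher (median -0.79), or 11 under upper-quartile normalization, and 8 mitosis genes were called lower and none higher (median -0.62). These were 37.0% and 17.4% of the lists, against 12.6% of all genes called lower and 31.7% called in either direction. MCM10, which loads the replication machinery, held 165, 166 and 177 CPM against 33.9, 32.4 and 40.7 (log2 fold change -2.28 ± 0.11 (SE), adjusted p = 2.4e-06). UHRF1, POLE and CLSPN, which act at the replication fork, were lower (log2 fold changes -1.87, -1.63 and -1.55). MKI67, which encodes the proliferation antigen Ki-67, held 623, 509.5 and 740.3 CPM against 226, 207 and 336 (log2 fold change -1.31 ± 0.21 (SE), adjusted p = 8.5e-04), and KIF11, ASPM and KIF20B of the spindle were lower (log2 fold changes -1.62, -1.59 and -1.37). MCMBP, which binds the MCM helicase, was among the genes with the smallest p (log2 fold change -2.61 ± 0.079 (SE), adjusted p = 6.7e-07).

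Regulators of the cycle moved both ways (median -0.11, or 0.10 under upper-quartile normalization). Of 18 CDK inhibitors and cyclins, 4 (22.2%) were called higher and 6 (33.3%) lower, against 19.1% and 12.6% of all genes. CDKN1C, the CDK inhibitor p57, held 9.64, 15.2 and 8.18 CPM against 228, 265 and 209 (log2 fold change 4.38 ± 0.25 (SE), adjusted p = 4.0e-06). CDK6, the kinase of the G1 phase, held 529, 473 and 592 CPM against 21.9, 160.4 and 32.2 (log2 fold change -2.93 ± 0.70 (SE), adjusted p = 0.00654), with labelled replicate 2 well above the other two. CCND2, cyclin D2, held 90.5, 108 and 96.6 CPM against 27.9, 26.9 and 29.1 (log2 fold change -1.85 ± 0.094 (SE), adjusted p = 2.7e-06), while its means were 124 CPM in K562 and 0.456 in K562/IM. The labelled libraries thus held more CCND2 than K562/IM. CCNE2, cyclin E2, was lower (log2 fold change -1.95). In the BCL2 family 3 of 15 were called higher and 1 lower. BMF and BAD, which promote apoptosis, were higher (log2 fold changes 2.81 and 1.94). BBC3, which encodes PUMA, passed narrowly, at 21.8, 9.52 and 18.7 CPM against 53.4, 17.4 and 40.2 (log2 fold change 1.12 ± 0.43 (SE), adjusted p = 0.0482), so that its groups overlapped. It lost the call with DESeq2 (adjusted p = 0.0630), with all 12 libraries in the fit (adjusted p = 0.0703) and without any library but labelled replicate 2, with adjusted p of 0.0632 to 0.160. BCL2 itself, which protects from apoptosis, held 5.56, 5.76 and 7.31 CPM against 1.84, 2.94 and 1.97 (log2 fold change -1.502 ± 0.23 (SE), adjusted p = 6.4e-04), while its mean in K562/IM was 0.542 CPM.

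The study blotted proteins of autophagy, apoptosis and drug efflux, and their transcripts were examined. Besides BCL2, ABCB1 was called lower (log2 fold change -2.53 ± 0.31 (SE), adjusted p = 2.1e-04). SQSTM1, the autophagy receptor p62, held 313, 320.0 and 298 CPM against 256, 251 and 215 (log2 fold change -0.40 ± 0.089 (SE), adjusted p = 0.00457), a difference that passed the p threshold but not the fold. BECN1 and ATG5, which act in the formation of autophagosomes, did not pass (log2 fold change 0.22 ± 0.087 (SE), adjusted p = 0.051, and log2 fold change -0.27 ± 0.11 (SE), adjusted p = 0.0536). MAP1LC3B, which encodes LC3B, held 239, 283 and 267 CPM against 282, 283 and 237 (log2 fold change -0.01 ± 0.10 (SE), adjusted p = 0.954), with an overlap of the groups and a sign that turned under other settings. BAX, an effector of apoptosis, did not pass (log2 fold change 0.23 ± 0.13 (SE), adjusted p = 0.157). Across the alternatives the adjusted p of SQSTM1, BECN1, ATG5 and BAX fell on both sides of 0.05, and none reached the fold threshold. Over the autophagy machinery, 6 of 48 genes were called higher and 2 lower (median 0.18), or 14 higher and 1 lower under upper-quartile normalization. ULK1, the initiating kinase, held 26, 25.7 and 22.1 CPM against 123, 126 and 117 (log2 fold change 2.28 ± 0.093 (SE), adjusted p = 1.2e-06). OPTN, a receptor for cargo, and WIPI1, which binds lipids of the forming membrane, were higher (log2 fold changes 2.01 and 1.88). The mean of WIPI1 was 28.7 CPM in K562, 9.18 in K562+L, 29.3 in K562/IM and 34.5 in the labelled group. TFEB, a transcription factor of lysosomal genes, was lower (log2 fold change -1.39).

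Surface, matrix and transport genes differed widely among themselves. Of 18 drug transporters 5 (27.8%) were called higher and 3 (16.7%) lower, against 19.1% and 12.6% of all genes. ABCC3, an efflux pump for conjugates, held 0.335, 0.254 and 0.470 CPM against 13.7, 11.7 and 11.6 (log2 fold change 5.08 ± 0.24 (SE), adjusted p = 2.2e-06), ABCC6 and SLC22A4 were higher (log2 fold changes 2.95 and 2.55), and SLCO4A1, an uptake carrier, was lower (log2 fold change -2.76). Of 26 collagens 15 (57.7%) were called higher and 3 (11.5%) lower (median 1.97), against 19.1% and 12.6% of all genes. With at least 10 counts required in every library 8 were called higher, and the median level of the list was 0.519 CPM in K562+L and 1.65 CPM in the labelled group. COL18A1, a basement membrane collagen, stood at 67.6, 72.9 and 55.4 CPM against 925, 941 and 880.2 (log2 fold change 3.78 ± 0.12 (SE), adjusted p = 7.4e-07), and COL2A1, COL8A2 and COL25A1 were higher from levels near 0 (log2 fold changes 6.71, 5.88 and 5.33). Of 16 integrins 6 (37.5%) were called higher, against 19.1% of all genes, and none lower. Those higher included ITGB7 (log2 fold change 2.96) and ITGB4 (log2 fold change 2.33). The median level of the integrin list was 0.634 CPM in K562+L and 3.91 CPM in the labelled group. Its summed level overlapped between the groups, at 303 to 388 CPM in K562+L and 260 to 406 CPM in the labelled group.

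Of 22 megakaryocyte and platelet genes 6 were called higher and 1 lower. TUBB1, the platelet tubulin, held 2.54, 3.27 and 4.05 CPM against 173, 146 and 192 (log2 fold change 5.66 ± 0.21 (SE), adjusted p = 9.7e-07). ITGA2B and ITGB3, the chains of the platelet fibrinogen receptor, were higher (log2 fold changes 2.53 and 3.18), though their means in K562/IM were 186 and 11.2 CPM against 18.05 and 3.86 in the labelled group. THBS1, thrombospondin, was lower (log2 fold change -3.87 ± 0.24 (SE), adjusted p = 6.6e-06). Of 22 leukocyte surface genes 5 (22.7%) were called higher and 4 (18.2%) lower, against 19.1% and 12.6% of all genes. Those higher included CD7 (log2 fold change 5.35) and CD82 (log2 fold change 3.20). Those lower included CD69 (log2 fold change -2.46) and CD33 (log2 fold change -2.08). Of 25 interferon genes 10 (44% with the 1 called lower, 40% alone) were called higher, against 19.1% of all genes (median 0.91). IRF7, a factor of that response, held 2.86, 2.40 and 1.79 CPM against 12.4, 12.7 and 12.1 (log2 fold change 2.37 ± 0.19 (SE), adjusted p = 1.9e-05). IFI27, IFIT1 and IFI6 were higher (log2 fold changes 2.25, 2.18 and 2.15) at low levels. Of 17 genes of HLA class I and antigen presentation 6 (35.3%) were called higher and 3 (17.6%) lower, against 19.1% and 12.6% of all genes. TAPBP, which loads peptides onto class I, held 47.9, 48.1 and 41.4 CPM against 237, 246 and 230.1 (log2 fold change 2.34 ± 0.092 (SE), adjusted p = 1.1e-06). NLRC5, the factor of class I genes, TAPBPL and HLA-C were higher (log2 fold changes 4.52, 3.02 and 2.48) at low levels.

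The remaining genes of smallest p among those lower in the labelled libraries had varied functions. NEFH, the heavy neurofilament, held 102, 98.3 and 99.2 CPM against 9.59, 9.04 and 9.16 (log2 fold change -3.46 ± 0.080 (SE), adjusted p = 5.3e-07). CALB1, a calcium-binding protein, held 31.0, 35.7 and 35.4 CPM against 2.73, 2.48 and 2.64 (log2 fold change -3.73 ± 0.11 (SE), adjusted p = 6.7e-07). NR2F2, an orphan nuclear receptor, was lower (log2 fold change -2.88), as were APOL4, an apolipoprotein L, and FAM216A (log2 fold changes -4.13 and -3.36). These genes too were selected for having no overlap between the groups.

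To see whether the difference of the lines without lycorine resembled that with it, K562/IM was compared with K562, which shares no library with the comparison above. There 2566 of 13406 genes (19.1%) were called, 1857 higher and 709 lower in K562/IM. Of 12955 genes tested in both comparisons, 1551 were called higher in K562/IM. Of these, 632 (40.7%) were also higher in the labelled libraries than in K562+L, which was 26.9% of the 2351 so called, and 143 (9.22%) were lower. Of 704 genes called lower in K562/IM, 101 (14.3%) were also lower in the labelled libraries, which was 6.06% of the 1666 so called. Another 193 (27.4%) were higher. Over all genes tested between the labelled libraries and K562+L, 19.1% were called higher and 12.6% lower. The 14.3% was thus close to the share of all genes. The median log2 fold change between the labelled libraries and K562+L was 0.80 for the 1551 genes and 0.30 for the 704. Across genes, which are not independent replicates, Spearman's rho between the log2 fold changes was 0.18.

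Tested as a difference of line differences over all 12 libraries, 4720 of 13995 genes (33.7%) passed the same thresholds. Globins ran in opposite directions. Of 10 globin list members tested between K562/IM and K562, 9 were called lower and 1, HBE1, higher, with a median of -1.62, and 10 members had a called positive difference of line differences. For SLC4A1 that difference was 12.60 on the log2 scale (adjusted p = 1.7e-10), and for ALAS2 5.81 on the log2 scale (adjusted p = 1.7e-10). Ribosomal proteins also changed sign, with a median of -0.79 between the untreated lines and 76 of 84 with a called positive difference. The processome kept its sign, with a median of -0.61 between the untreated lines, of which 2 of 49 were called lower, and 31 had a called negative difference. The ERK list had 8 of 19 called higher in K562/IM, where 19.1% of all genes were called in either direction. It had 15 with a called negative difference, against 33.7% of all genes called in either direction. ABCB1 was higher in K562/IM than in K562 (log2 fold change 3.74) and had a difference of -6.23 on the log2 scale (adjusted p = 3.1e-08).

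**Figure D4:**
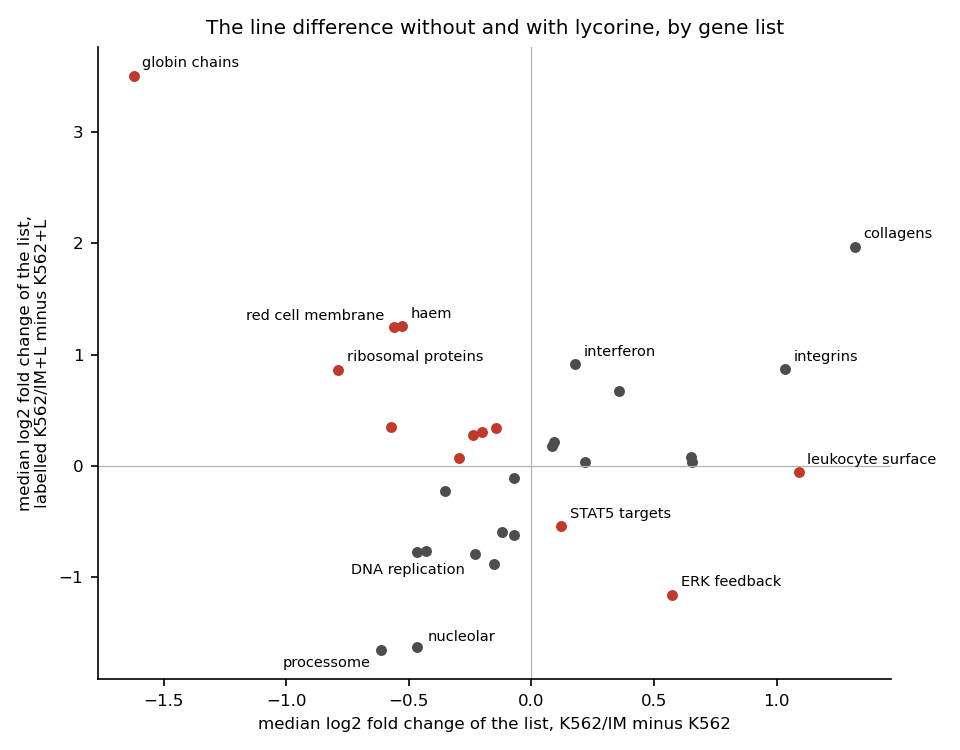
Median log2 fold change of each gene list for K562/IM minus K562 (horizontal) and for labelled K562/IM+L minus K562+L (vertical), in red where the signs are opposite. Globin chains lie at -1.62 and 3.51, ribosomal proteins at -0.79 and 0.86 and ERK feedback at 0.57 and -1.16, while the processome lies at -0.61 and -1.66 and collagens at 1.32 and 1.97.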

How the data were processed

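RNA of 12 libraries, 3 per group, was sequenced after enrichment of polyadenylated RNA. The authors deposited raw counts per gene symbol without normalization. The submitters' processing notes name FastQC, STAR, StringTie, DESeq2 and hg38, without versions or roles; the annotation and counting settings are not given in the sources used here. Of values from 1 to 25 in the 6 libraries compared, 68.6% were a multiple of 4 or 1 above. Of the whole numbers from 1 to 25, 52% are. That share takes each number as equally frequent, which low counts need not be. Counting noise may exceed what totals imply.

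Counts were filtered with edgeR's filterByExpr (minimum count 10), normalized by TMM over the libraries fitted and tested with the quasi-likelihood test (edgeR 4.0.16, limma 3.58.1, R 4.3.3) with Benjamini-Hochberg adjustment over all genes tested. Standard errors were derived from the F statistic. CPM used TMM over 12 libraries. Positions were taken from GENCODE on GRCh38 for 19029 symbols. DESeq2 1.42.0 served as an alternative. Simulated counts with changed genes gave 168 of 196 recovered and 8 false calls among 13181 genes for the direct comparison. The simulation changed far fewer genes than the 31.7% called in the data, without favouring a direction. Its counts were drawn from the fitted model. It therefore does not measure false calls that stem from normalization or from the uneven low counts. The members and gene lists were chosen with earlier results of these data known. Named genes are the 10 called genes of smallest p in each direction without overlap between groups, up to 4 called members per list by absolute fold change, the blotted proteins with MKI67 (1 gene is not reported here), and the 5 called genes of highest mean CPM in each direction. Labels give no batch, and an exact test of 3 against 3 libraries cannot give a p under 0.1. Alternatives covered filter, normalization, threshold, tool, samples in the fit, the replicate block and each library left out.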

Additional observations from a re-analysis of the deposited data

Results flagged for a closer look

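The difference between the lines was not the same with and without lycorine for many genes. Tested as an interaction over all 12 libraries with edgeR's quasi-likelihood test, 4720 genes had a difference of line differences (labelled K562/IM+L minus K562+L, less K562/IM minus K562) past an adjusted p of 0.05 and an absolute log2 value of 1. Among the genes of smallest p, of highest CPM and of the blotted proteins, the following passed, each with its difference on the log2 scale in parentheses and adjusted p of at most 3.2e-03. Positive differences were found for SLC25A37 (4.43), FAXDC2 (4.12), ESPN (9.49), ALAS2 (5.81), PKLR (4.77), ATP1B2 (6.79), SLC4A1 (12.60), KEL (2.55), MYO15B (2.55), MELTF (2.55), BCL2 (2.12), HBG2 (4.83), HBZ (7.96), HBG1 (4.73), RPL13A (2.30) and HBA1 (4.85). Negative differences were found for NEFH (-1.88), ETV4 (-4.07), SLC2A3 (-4.58), HK2 (-5.11), CALB1 (-7.08), APOL4 (-3.84), MCMBP (-2.38), NR2F2 (-2.50), UTP4 (-1.63), FAM216A (-3.50), ABCB1 (-6.23), MKI67 (-1.18) and ENO1 (-1.30).

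The globins HBZ, HBG1, HBG2 and HBA1 were lower in K562/IM than in K562 and higher in the labelled libraries than in K562+L, as were ALAS2, PKLR, ESPN, ATP1B2, SLC4A1 and RPL13A. ABCB1 and CALB1 ran the other way, higher in K562/IM and lower in the labelled libraries. BCL2 was lower in both, by more in K562/IM. These values rest on the label of the labelled libraries. Groups held 3 libraries each, too few for a test of single libraries that stand apart.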

How the results depend on the processing

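The count of called genes was 3623 to 4282 across the filters, normalizations, tools and fits tried, against 4235 (4242 with no filter, 3623 with at least 10 counts in every library, 4282 with upper-quartile normalization, 4194 with library totals, 4256 with DESeq2, 3884 with counts divided by 4 and 4208 with all 12 libraries in the fit), and 4024 to 4474 with each library left out. Without a fold threshold it was 8982 genes, 4561 higher and 4421 lower, and the K562/IM against K562 count was 7661 and that of differences of line differences 8628. No named gene changed from called in one direction to called in the other, and the remaining genes were not compared in this way.

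The fit with the replicate number as a block called 4176 genes. Deviations of same-numbered libraries correlated at 0.02, 0.15 and 0.21. Labelled replicate 1 correlated at 0.04 with K562+L replicate 2. Labelled replicate 2 correlated at -0.16 with K562+L replicate 3, and labelled replicate 3 at -0.18 with K562+L replicate 2. The labels do not say whether same-numbered libraries were handled together, and this was not tested. Under upper-quartile normalization list medians moved with the median of all genes, and the fewer lower calls there follow from that shift. Genes called higher then numbered 9 in place of 5 for erythroid and stem cell transcription factors, 6 in place of 3 for immediate early genes and 5 in place of 3 for chaperones, and genes called lower numbered 1 in place of 3 for HLA genes and 1 in place of 2 for ATF4 targets. The fit of all 12 libraries for K562/IM against K562 was chosen after seeing the data. Leaving out 1 library also moved small list counts: HLA genes called lower went from 3 to 1 without K562+L replicate 2 or labelled replicate 3, and ATF4 targets called lower from 2 to 1 without K562+L replicate 3 or labelled replicate 2. Haem genes called lower went from 0 to 1 without labelled replicate 2 or 3, megakaryocyte genes called lower from 1 to 2 without K562+L replicate 2 or labelled replicate 3, unfolded protein response genes called lower from 0 to 1 without K562+L replicate 1 or labelled replicate 3, and integrins called lower from 0 to 1 without labelled replicate 3.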
